A study of Rattus norvegicus with 12 samples.

Results

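The 9 genes described here encode the cytokines and soluble or membrane regulators of the interleukin-1 (IL-1), tumor necrosis factor (TNF) and alarmin systems, namely Il1a, Il1b, Il1rn, Il1r2, Il1rl1, Il6, Il18, Il33 and Tnf. They were chosen by gene name, with earlier results of these data known. All 9 had a probe on the array, out of 14737 genes that could be named there. RNA from the left upper lung lobe of 12 male Sprague-Dawley rats, 8 to 12 weeks of age per the labels, was measured on single-colour Agilent arrays, with 3 rats in each of 4 groups. The Control rats breathed air and received saline on the same schedule. The CS+LPS rats were exposed to cigarette smoke (CS) and had lipopolysaccharide (LPS), a bacterial cell wall component, instilled into the trachea, as a model of chronic obstructive pulmonary disease (COPD). The CS+LPS+NaHS rats received in addition sodium hydrosulfide (NaHS), a donor of hydrogen sulfide (H2S), and the CS+LPS+PPG rats propargylglycine (PPG), an inhibitor of the H2S-forming enzyme Cth, by injection before each exposure. No group received NaHS or PPG without smoke and LPS, and no group received smoke or LPS alone, so that the parts of each cannot be told apart. The lungs were taken a day after the last smoke exposure, and later still after the last LPS dose. The comparisons ask which genes of these systems differ between exposed and Control lungs, and whether a source of H2S or a block of its synthesis changes them.

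IL-1 alpha and IL-1 beta are agonists of the same receptor. IL-1 beta and IL-18 are made as inactive precursors that caspase-1 cleaves within the inflammasome, a protein complex assembled on the adaptor encoded by Pycard. The action of IL-1 is held back by a receptor antagonist (Il1rn), which occupies the receptor without signaling, and by a decoy receptor (Il1r2), which binds IL-1 without signaling. IL-33 is an alarmin, stored in the nuclei of epithelial and endothelial cells and released on damage, and acts on the receptor ST2 (Il1rl1), which mast cells, innate lymphoid cells and some T cells carry. TNF and IL-6 are early cytokines of activated macrophages, and their transcription is driven largely by the factor NF-kB.

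Values are given as log2 signal, the log2 of the scanner's processed signal after all arrays were scaled to the same 75th percentile, so that a difference of 1 is a 2-fold change. Levels of different genes are not compared, because each probe has its own brightness. The 75th percentile of the unscaled signal lay between 1229 and 3261 over the 12 arrays, and no spot was saturated. The arrays came from 2 slides that were scanned separately. Slide 2 held the 3 CS+LPS arrays and Control replicate 3, and slide 1 held the other 8 arrays. The comparison of CS+LPS with Control is thus partly tied to slide, as Control replicates 1 and 2 were on slide 1. Any difference between CS+LPS and the NaHS or PPG groups cannot be told apart from slide, except through Control replicate 3. This array had the lowest signal, and its correlation with the others over all probes was 0.936 to 0.956, while the other 11 correlated more closely with each other than with it. All 6 alveolar type 2 cell markers with a probe were well above background on every array, with a summed linear signal of 901000 to 1360000. Heart muscle markers varied from 6190 to 88100 in the same sum within Control alone. The sum was 12100 to 50300 with CS+LPS, 10300 to 53900 with NaHS added and 38700 to 67900 with PPG added. All 4 heart muscle markers tested were above Control on average in each exposed group, with median differences of 2.01, 1.10 and 4.05. With PPG added the median difference from CS+LPS was 2.05. The part of heart muscle in the results was not tested.

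Of the 9 genes, 8 were well above background on all 12 arrays and were tested. Il6 was not, on any array. The 5 genes without which the results cannot be followed are Il1b, Il1rn, Il18, Tnf and Il6, and their promoters are shown here because Il1rn, Il18 and Tnf were higher in every exposed lung, while Il1b was not and Il6 was not detected. Promoters of 8 of the 9 genes matched in RefSeq on the assembly GRCr8, Il1r2 being the exception. Each sequence holds the 250 bases before the annotated start of the gene, read 5′ to 3′ along the gene's own strand. They lie at chr3:137036582-137036831 on the minus strand for Il1b (gene 24494), at chr3:27520072-27520321 on the plus strand for Il1rn (gene 60582), at chr8:59801822-59802071 on the plus strand for Il18 (gene 29197), at chr20:3626435-3626684 on the plus strand for Tnf (gene 24835) and at chr4:5894576-5894825 on the minus strand for Il6 (gene 24498). Capitals mark the letters TATAAA on the gene's strand or a match to the NF-kB consensus on either strand.
Il1b: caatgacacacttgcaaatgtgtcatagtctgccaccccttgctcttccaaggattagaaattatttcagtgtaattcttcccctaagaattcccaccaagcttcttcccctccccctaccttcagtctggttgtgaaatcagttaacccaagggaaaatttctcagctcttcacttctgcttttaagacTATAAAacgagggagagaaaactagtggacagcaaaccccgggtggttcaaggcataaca
Il1rn: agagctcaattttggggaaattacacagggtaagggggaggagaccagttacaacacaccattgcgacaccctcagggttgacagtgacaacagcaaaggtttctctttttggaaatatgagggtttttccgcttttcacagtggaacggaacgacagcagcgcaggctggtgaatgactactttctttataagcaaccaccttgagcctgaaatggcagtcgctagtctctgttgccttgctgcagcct
Il18: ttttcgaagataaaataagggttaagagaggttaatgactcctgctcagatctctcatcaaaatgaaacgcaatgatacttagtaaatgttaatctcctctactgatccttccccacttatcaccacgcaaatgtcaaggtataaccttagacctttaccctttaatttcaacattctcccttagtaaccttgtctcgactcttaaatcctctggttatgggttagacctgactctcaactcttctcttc
Tnf: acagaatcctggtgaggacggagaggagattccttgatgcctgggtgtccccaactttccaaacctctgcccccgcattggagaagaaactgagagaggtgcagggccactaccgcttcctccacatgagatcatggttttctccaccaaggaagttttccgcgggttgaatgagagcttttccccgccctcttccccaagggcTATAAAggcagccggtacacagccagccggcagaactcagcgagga
Il6: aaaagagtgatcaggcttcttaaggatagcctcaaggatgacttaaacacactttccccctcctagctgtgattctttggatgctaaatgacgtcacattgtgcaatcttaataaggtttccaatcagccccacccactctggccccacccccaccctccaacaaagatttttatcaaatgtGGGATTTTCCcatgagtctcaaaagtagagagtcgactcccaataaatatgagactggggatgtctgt

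The NF-kB consensus was found in the window of 1 of the 8 genes, Il6, and in 3.54% of all 33469 rat promoters of the same length. The letters TATAAA were found for Il1a, Il1b, Il33 and Tnf, which is 4 of 8, against 8.06% of all promoters. The AP-1 letters TGANTCA, searched on both strands, were found for 1 gene, Il1a, against 6.34% of all promoters. Il1rn and Il18 held none of the 3 motifs in this window. None of the matches overlapped another.

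Against Control, the direction of the 8 tested genes, each counted by its brightest probe, was mostly upward. With CS+LPS, 7 of 8 log2 fold changes were above 0, with a median of 0.58, against a median of -0.06 over all 21239 tested probes. In the NaHS group it was 7 of 8 with a median of 0.51 (all probes 0.02), and with CS+LPS+PPG 6 of 8 with a median of 0.53 (all probes 0). These 3 comparisons share the same Control rats. Because the genes were chosen with earlier results of these data known, the shares of all probes given beside the counts are a description only. By the study's rule, a fold change of at least 2 with an unadjusted p under 0.05, 1 of 8 genes was called with CS+LPS (Il1rn, higher), against 4.6% of all tested probes in either direction and 1.53% upward. With CS+LPS+NaHS 0 of 8 were called, against 2.58% of probes. With CS+LPS+PPG 4 of 8 were called (4.3% of probes), Il1rn, Il18 and Tnf higher (2.39%) and Il1a lower (1.92%). At an unadjusted p under 0.05 alone there were 4, 4 and 5 of 8 genes, against 25.5%, 17.6% and 29.6% of probes. In each comparison 4 of 8 genes had all 3 exposed lungs above all 3 Control lungs, against 12.4%, 14.8% and 19.7% of probes, and with CS+LPS+PPG 1 gene had them all below (13.9%). At an adjusted p under 0.05 (limma with Benjamini-Hochberg adjustment over all tested probes), Il1rn and Il18 were higher with CS+LPS, 2 of 8 genes, against 2.1% of probes in either direction and 0.862% upward. With CS+LPS+PPG Il1rn, Il18 and Tnf were higher, 3 of 8 genes, against 5.24% of probes and 3.24% upward. With CS+LPS+NaHS 0 of 8 passed in limma, against 0.122%. In the following, rose and fell are used for this stricter threshold only. Without Control replicate 3, 0 genes were called and 0 passed the adjusted threshold with CS+LPS, and with CS+LPS+PPG the counts were 1 (Il1a) and 1 (Il18).

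**Figure D1:**
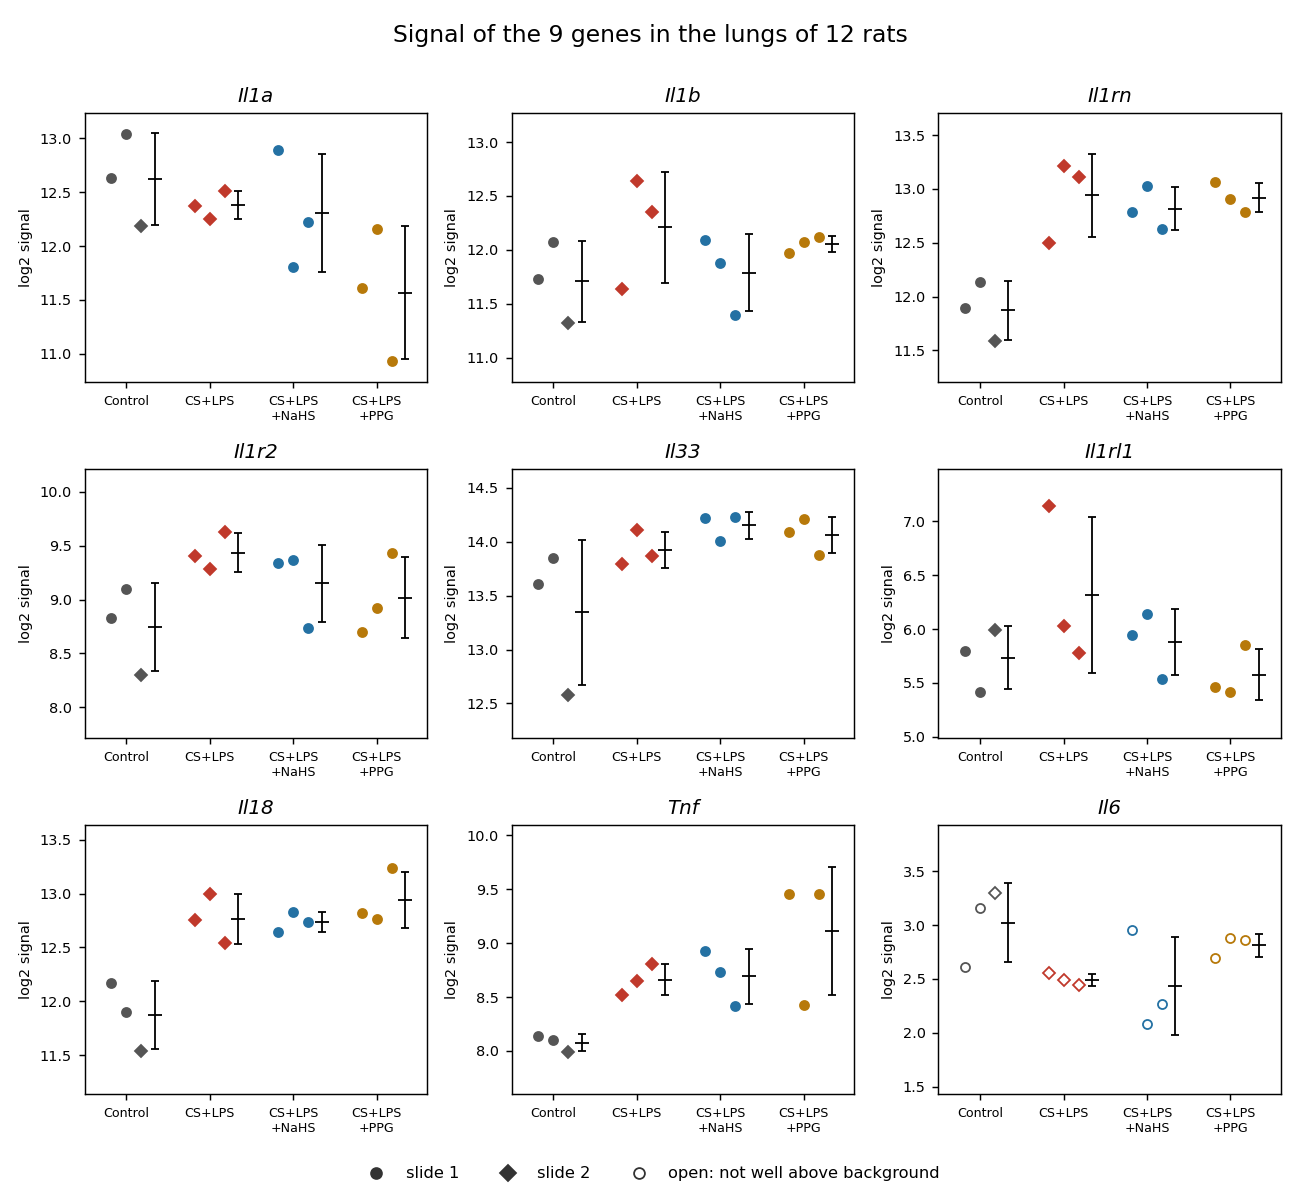
Log2 signal of each of the 9 genes (brightest probe) in every rat, by group, with 1 point a rat. Black bars are the mean and SD of the 3 rats, diamonds are arrays of slide 2, circles are arrays of slide 1, open symbols are signals not well above background, and every panel spans the same range of log2 signal. The 9 exposed rats lie above the 3 Control rats for Il1rn, Il18 and Tnf.

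Il1rn, the IL-1 receptor antagonist, gave 11.89, 12.14 and 11.59 in Control replicates 1 to 3. Exposed lungs gave 12.50, 13.21 and 13.11 with CS+LPS, 12.79, 13.03 and 12.63 with NaHS added, and 13.06, 12.91 and 12.79 with PPG added. The lowest exposed lung (12.50, CS+LPS replicate 1) was above the highest Control lung (12.14), so that the groups did not overlap. Group means were 11.87 ± 0.28 (SD, n = 3), 12.94 ± 0.38, 12.82 ± 0.20 and 12.92 ± 0.14. Il1rn rose 2.09-fold with CS+LPS (log2 fold change 1.07, SE 0.21, limma adjusted p = 0.0367) and 2.06-fold with CS+LPS+PPG (1.04, SE 0.21, limma adjusted p = 0.0299). With CS+LPS+NaHS it was 1.92-fold the Control level, with a limma adjusted p of 0.122. The NaHS group differed from CS+LPS by -0.12 (95% interval -0.59 to 0.34), and the PPG group by -0.02 (-0.49 to 0.44), so that the 3 exposed means cannot be put in order.

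Il18, whose product drives interferon gamma production by lymphocytes, gave 12.17, 11.90 and 11.54 in Control replicates 1 to 3. Values were 12.75, 13 and 12.54 with CS+LPS, 12.64, 12.83 and 12.74 with NaHS added, and 12.82, 12.76 and 13.24 with PPG added. All 9 exposed lungs were above all 3 Control lungs. Il18 rose 1.86-fold with CS+LPS (log2 fold change 0.90, SE 0.19, limma adjusted p = 0.0451) and 2.10-fold with CS+LPS+PPG (1.07, SE 0.19, limma adjusted p = 0.0224). With CS+LPS+NaHS the value was 1.82-fold, with a limma adjusted p of 0.122. The differences from CS+LPS were -0.03 (95% interval -0.46 to 0.40) for NaHS and 0.17 (-0.25 to 0.60) for PPG.

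Tnf showed the least spread in Control lungs, with 8.14, 8.10 and 7.99 in replicates 1 to 3. Values were 8.52, 8.65 and 8.81 with CS+LPS, 8.93, 8.73 and 8.42 with NaHS added, and 9.46, 8.43 and 9.46 with PPG added. All 9 exposed lungs were above all 3 Control lungs, and the CS+LPS+PPG rats were split, with replicate 2 within the range of the other exposed groups and the other two above every other lung. Tnf rose 2.06-fold with CS+LPS+PPG (log2 fold change 1.04, SE 0.25, limma adjusted p = 0.0445). It was 1.5-fold with CS+LPS and 1.53-fold with CS+LPS+NaHS, with limma adjusted p values of 0.183 and 0.256. Between PPG and CS+LPS the difference was 0.46 (95% interval -0.10 to 1.02, limma adjusted p = 0.56).

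These 3 genes, of the 8 tested, were those in which all 9 exposed lungs lay above all 3 Control lungs, a pattern that 5.88% of all tested probes shared. The changes with slide as a block, which rests on Control replicate 3, were 1.35 for Il1rn and 1.23 for Il18 with CS+LPS. With CS+LPS+PPG the block instead sets Control replicate 3 aside, and gave the same values as leaving that array out. They were 0.90 for Il1rn, 0.91 for Il18 and 1.00 for Tnf, with limma adjusted p values of 0.0523, 0.0353 and 0.0784. The adjusted calls of Il1rn and Tnf and the fold rule's calls of all 3 genes were thus lost. Within slide 1, with 2 Control rats, these folds were the same and the limma adjusted p values were 0.0282, 0.0341 and 0.0951. The call of Tnf was lost, again with the fold rule's calls of all 3. For CS+LPS+PPG these settings compare the same rats, so they are not separate checks. The adjusted call was held in 9 of 25 alternative settings for both Il1rn and Il18 with CS+LPS, in 15 and 18 of 25 with CS+LPS+PPG, and in 6 of 25 for Tnf with CS+LPS+PPG, while the direction was the same in all of them. With each array left out in turn, the adjusted calls of Il1rn and Il18 with CS+LPS each held in 2 of 12 fits (Il1rn without Control replicate 2 or CS+LPS replicate 1, Il18 without Control replicate 1 or 2). That of Tnf with CS+LPS+PPG held in 1 of 12, without CS+LPS+PPG replicate 2, and without CS+LPS+PPG replicate 1 or 3 no gene of the 3 passed in limma.

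The summed signals of neutrophil and macrophage markers, in which bright genes weigh most, were also higher in every exposed lung than in Control. The rise was uneven from gene to gene. The summed linear signal of the 10 neutrophil markers with a probe ranged from 13800 to 23800 over the Control lungs, from 27300 to 47000 with CS+LPS, from 31300 to 47500 with NaHS added and from 39300 to 59400 with PPG added. Of the 9 tested, all 9 were above Control on average in each comparison. At the adjusted threshold of limma 2, 1 and 2 rose, against 2.1%, 0.122% and 5.24% of all probes in either direction. The neutrophil markers S100a8 and S100a9 overlapped Control with CS+LPS and with NaHS added, and lay above it with PPG added. Lcn2, an iron-scavenging protein of neutrophils and epithelium, rose by 1.39, 1.49 and 1.78, while Cxcr2, a chemokine receptor that defines neutrophils, stood at 0.17, 0.07 and 0.12. The sum of the 10 macrophage and monocyte markers with a probe ranged from 34500 to 52200 over the Control lungs, from 55900 to 63600 with CS+LPS, from 56800 to 62900 with NaHS added and from 58900 to 66100 with PPG added. Of the 9 tested, 8, 8 and 9 were above Control and 2, 0 and 3 rose at the adjusted threshold, against the same shares of probes. Cd68, a lysosomal protein of macrophages, stood at 1.37, 1.43 and 1.34 (limma adjusted p = 0.0284, 0.0714 and 0.023), and Fabp4, a lipid carrier of alveolar macrophages, at -0.17, -0.15 and 1.05. Fabp4 is also a fat marker. The summed linear signal of the 4 fat markers with a probe was 1980 to 4140 with PPG added and 569 to 7090 in Control. It was 787 to 1200 with CS+LPS and 634 to 1190 with NaHS added. The part of fat in the Fabp4 values was not tested. Elane, the neutrophil elastase, and Marco, a scavenger receptor of macrophages, were well above background on 1 array each.

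Lymphocyte markers were looked at as well. The sum of the 3 B cell markers with a probe was 2300 to 3370 in Control lungs and lay above that in every exposed lung, at 4000 to 6640 with CS+LPS, 5290 to 5410 with NaHS added and 3950 to 5650 with PPG added. Cd79b, a chain of the B cell receptor complex, was called in all 3 comparisons, at 1.22, 1.24 and 1.09 (limma adjusted p = 0.0528, 0.123 and 0.0501). Of the 3 B cell markers, 2, 3 and 2 were above Control on average, with medians of 0.94, 0.93 and 0.49. Only Cd79b was called (4.6%, 2.58% and 4.3% of all probes in either direction), and 0 passed the adjusted threshold. The sum of the 8 T cell and innate lymphoid markers was 3350 to 10000 in Control, overlapped it with CS+LPS (7180 to 12400) and with NaHS added (8510 to 10100), and lay above it with PPG added (11300 to 11600). The part of these cells in the changes of Il1rn, Il18 and Tnf was not tested. In whole lung, more cells of a type and more RNA per cell cannot be told apart.

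Il1b, the IL-1 agonist released by activated macrophages and neutrophils, gave 11.73, 12.07 and 11.32 in Control replicates 1 to 3. Values were 11.64, 12.64 and 12.35 with CS+LPS, 12.09, 11.88 and 11.39 with NaHS added, and 11.97, 12.07 and 12.12 with PPG added. Each exposed group overlapped Control, and 5 of 9 exposed lungs were above the highest Control lung. The log2 fold changes were 0.50 (95% interval -0.10 to 1.11) with CS+LPS, 0.08 (-0.53 to 0.69) with CS+LPS+NaHS and 0.35 (-0.26 to 0.96) with CS+LPS+PPG, with limma adjusted p values of 0.263, 0.893 and 0.415. All 3 intervals include no change, and the CS+LPS interval also includes the change of Il1rn in the same comparison (1.07). Within slide 2, where a single Control rat stood against the 3 CS+LPS rats, the Il1b difference was 0.89.

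Agonist and antagonist were then compared within each rat. Only the change of the difference between groups is read, since the probes differ in brightness. The difference of Il1b minus Il1rn lay between -0.27 and -0.07 in Control, between -0.86 and -0.58 in CS+LPS, between -1.24 and -0.70 in CS+LPS+NaHS and between -1.08 and -0.67 in CS+LPS+PPG. The 9 exposed rats were thus all below the 3 Control rats. Il1rn alone already separated the same rats (12.50 or more against 12.14 or less), so this separation is not independent of that of Il1rn. The share of other gene pairs that separate in this way was not computed. The mean differences from Control were -0.56, -0.86 and -0.69 log2 units. Each of these 3 changes had a two-sided exact permutation p of 0.1, the smallest that 3 against 3 rats allow, and an adjusted value of 0.45 over the 18 differences tested, so that none passed a threshold. Without Control replicate 3 the changes were -0.61, -0.91 and -0.74. The NaHS and PPG groups differed from CS+LPS by -0.30 and -0.13 (exact permutation p = 0.3 and 0.5). The same comparison with the decoy receptor, Il1b minus Il1r2, gave mean differences from Control of -0.19, -0.32 and 0.08 (exact permutation p = 0.7, 0.1 and 0.8). Here CS+LPS (2.24 to 3.35) and CS+LPS+PPG (2.68 to 3.27) overlapped Control (2.90 to 3.02), and CS+LPS+NaHS (2.51 to 2.75) lay below it. The third pair, the ligand Il33 minus its receptor Il1rl1, gave -0.01, 0.67 and 0.87 (exact permutation p = 1, 0.4 and 0.2), and every exposed group overlapped Control. None of the 18 differences passed after adjustment.

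**Figure D2:**
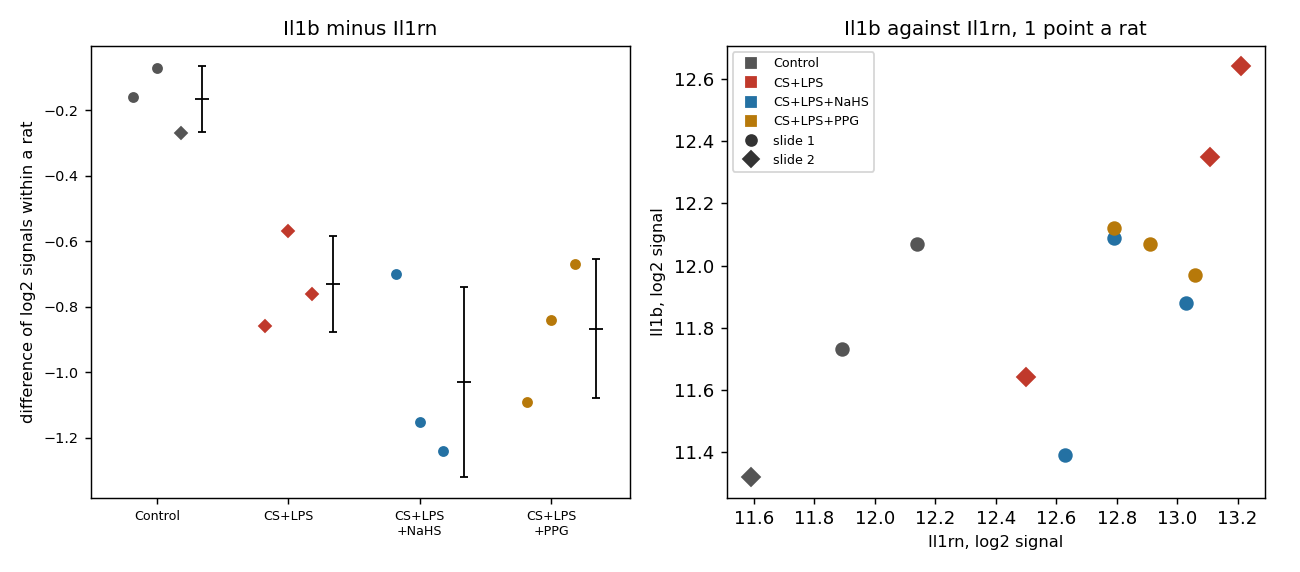
Left, the difference of the log2 signals of Il1b and Il1rn within each rat, by group, with black bars for the mean and SD of 3 rats. Right, the log2 signal of Il1b against that of Il1rn, with 1 point a rat, coloured by group and with diamonds for slide 2. The 3 Control rats (-0.27 to -0.07) lie above the 9 exposed rats (-1.24 to -0.58) on the left. Il1rn alone separates the same rats on the right.

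Il1a (gene 24493), the agonist that is active without cleavage and is held in epithelial cells as well as macrophages, was the only tested gene whose mean was below Control in all 3 comparisons. Its brighter probe, with 10 spots an array, gave 12.63, 13.04 and 12.19 in Control replicates 1 to 3. Values were 12.37, 12.25 and 12.51 with CS+LPS, 12.89, 11.81 and 12.22 with NaHS added, and 11.61, 12.16 and 10.93 with PPG added. The CS+LPS+PPG lungs were below all Control lungs (as in 13.9% of probes) and below all CS+LPS lungs (6.67%), while the other exposed groups overlapped Control. The CS+LPS+PPG level was 2.07-fold below Control (log2 fold change -1.05, SE 0.34), with a limma adjusted p of 0.0829. Against CS+LPS it was 1.75-fold lower (log2 fold change -0.81, limma adjusted p = 0.42).

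The second Il1a probe, with 1 spot an array, gave 10.02, 9.93 and 11.14 in Control replicates 1 to 3 and 8.02 to 9.70 in the 9 exposed lungs. Here all 9 exposed lungs were below all Control lungs, a pattern seen in 3.6% of all tested probes. The differences were -1.22, -1.21 and -1.87 with CS+LPS, with NaHS added and with PPG added (limma adjusted p = 0.0858, 0.155 and 0.025), so that on this probe Il1a fell with CS+LPS+PPG. By the study's rule this probe was called lower in all 3 comparisons, against 4.6%, 2.58% and 4.3% of probes in either direction. The counts of called genes above do not include it. Control replicate 3 was the highest Control lung on this probe and the lowest on the brighter one, and the probes disagree on whether CS+LPS and CS+LPS+NaHS lungs overlap Control. With the mean of both probes, the change with CS+LPS+PPG was -1.46 (limma adjusted p = 0.0202).

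Il1r2 (gene 117022), the decoy receptor of IL-1 that neutrophils and macrophages shed, gave 8.83, 9.10 and 8.30 in Control replicates 1 to 3. Values were 9.40, 9.28 and 9.63 with CS+LPS, all above Control, 9.34, 9.37 and 8.74 with NaHS added, and 8.70, 8.92 and 9.43 with PPG added. The log2 fold change was 0.69 with CS+LPS (limma adjusted p = 0.142), 0.41 with CS+LPS+NaHS and 0.27 with CS+LPS+PPG (limma adjusted p = 0.422 and 0.499). With slide as a block the CS+LPS value was 1.14 (limma adjusted p = 0.0174), and without Control replicate 3 it was 0.47 (limma adjusted p = 0.326).

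**Figure D3:**
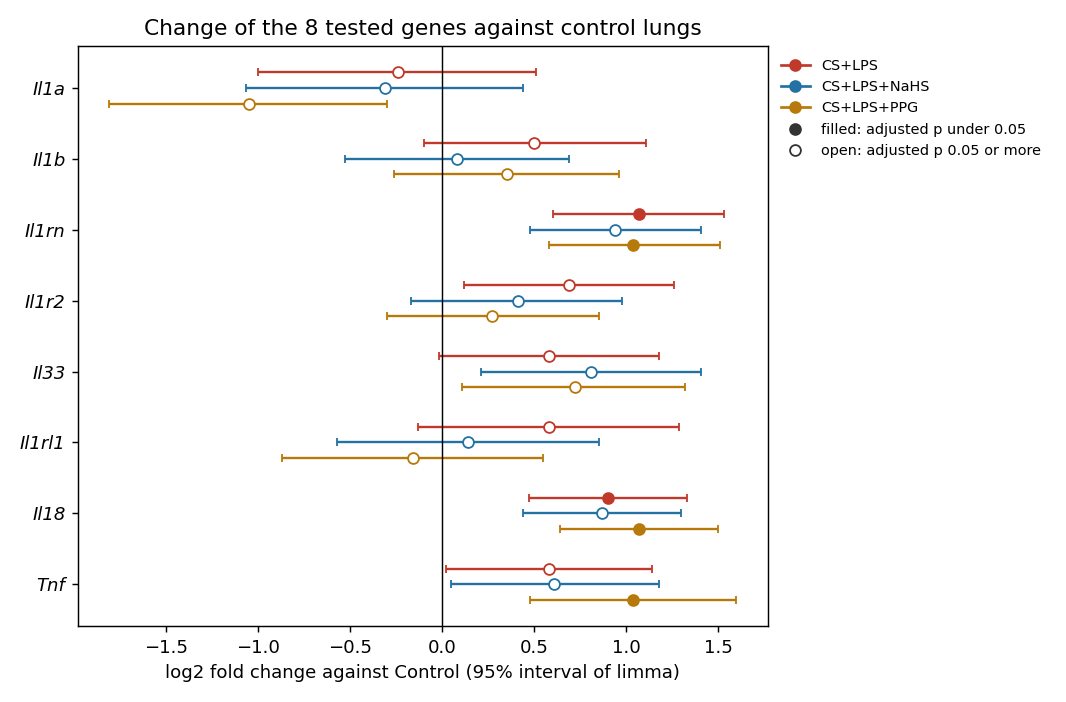
Log2 fold change of the 8 tested genes (brightest probe) against Control (x axis) for each exposed group, with the 95% limma interval. Filled points have an adjusted p under 0.05. The intervals of Il1rn, Il18 and Tnf lie above 0 in all 3 comparisons, those of Il1b include 0 in all 3, and that of Il1a lies below 0 with CS+LPS+PPG alone.

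Il33 (gene 361749) gave 13.61, 13.85 and 12.58 in Control replicates 1 to 3, the last far below every other lung. Values were 13.79, 14.11 and 13.87 with CS+LPS, 14.22, 14.01 and 14.23 with NaHS added, and 14.09, 14.21 and 13.88 with PPG added. In 8 of 9 exposed lungs Il33 was above the highest Control lung. The log2 fold changes were 0.58 with CS+LPS, 0.81 with CS+LPS+NaHS and 0.72 with CS+LPS+PPG (limma adjusted p = 0.21, 0.198 and 0.116). Without Control replicate 3 they were 0.19, 0.43 and 0.33. With slide as a block, which rests on the same lung, the CS+LPS value was 1.34 (limma adjusted p = 0.000906), and the differences of the NaHS and PPG groups from CS+LPS turned from 0.23 and 0.14 to -0.92 and -1.01.

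Il1rl1 (gene 25556), the receptor of IL-33, was dim, at 5.80, 5.42 and 5.99 in Control replicates 1 to 3. CS+LPS replicate 1 stood apart at 7.14, while CS+LPS replicates 2 and 3 gave 6.03 and 5.78. The CS+LPS+NaHS rats gave 5.95, 6.14 and 5.54 and the CS+LPS+PPG rats 5.46, 5.42 and 5.85, and every exposed group overlapped Control. The log2 fold change with CS+LPS was 0.58 (limma adjusted p = 0.267), and 0.17 without CS+LPS replicate 1. The PPG group was 0.74 lower than CS+LPS (log2 fold change -0.74, limma adjusted p = 0.433), and -0.33 without that rat. A second Il1rl1 probe, of another RefSeq transcript, was well above background on 2 CS+LPS and 2 CS+LPS+NaHS arrays and on no Control or CS+LPS+PPG array. It was highest in the same rat, at 6.15, with CS+LPS replicate 2 at 5.38 and replicate 3 at 4.18, not well above background. The Control signals, none of them well above background, were 4.07, 3.82 and 5.18, so that no fold is given.

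The rat with the high Il1rl1 signal was also the highest for 6 of the 9 mast cell markers with a probe, all 9 of which were well above background on every array. The largest gaps to the other lungs were those of Mcpt1, a mast cell protease (12.86 against 8.39 to 10.87), Fcer1a, a chain of the IgE receptor (10.01 against 6.72 to 8.26), and Cpa3, the mast cell carboxypeptidase (11.21 against 6.44 to 9.50). Kit, the stem cell factor receptor (10.68), Hdc, which makes histamine (11.05), and Tpsab1, a tryptase (8.22), lay within the range of the other 11 lungs. The summed linear signal of the list, in which bright genes weigh most, was 16700 in this rat and 5170 to 6660 in the others, with Control at 5890 to 6590. Over the whole list there was no common direction with CS+LPS, since 4 of 9 markers were above Control and the median was -0.12. The 4 were all called higher (1.53% of probes), Mcpt1 by 1.85, Cpa3 by 1.65, Fcer1a by 1.24 and Cma1 by 1.01. Of these only Cma1 passed the adjusted threshold (limma adjusted p = 0.035), as it did with CS+LPS+PPG (1.10, limma adjusted p = 0.0219). Tpsab1 was called lower with CS+LPS (log2 fold change -1.5, limma adjusted p = 0.162). The part of mast cells in the Il1rl1 signal was not tested.

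**Figure D4:**
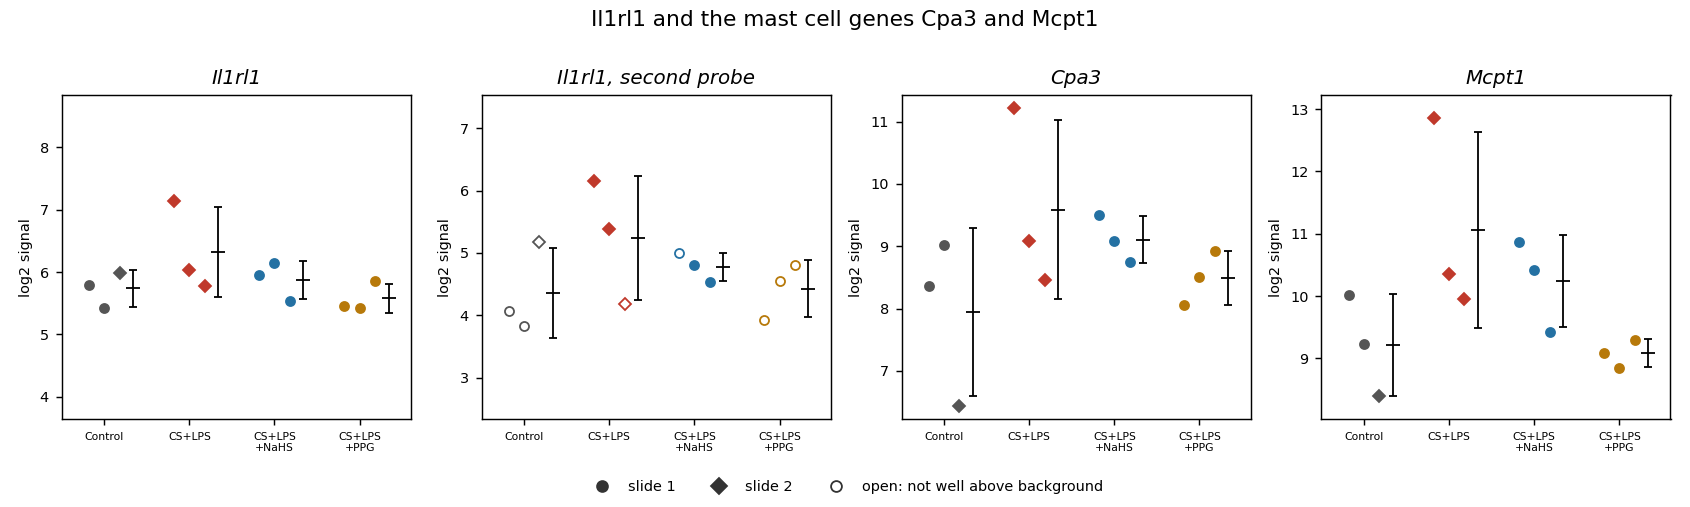
Log2 signal of Il1rl1 (brighter and second probe) and of the mast cell genes Cpa3 and Mcpt1 in every rat, by group; black bars are the mean and SD of 3 rats, diamonds are slide 2, open symbols are not well above background, and the panels span the same range of log2 signal. CS+LPS replicate 1 is the highest point in each panel, at 7.14, 6.15, 11.21 and 12.86.

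Il6 was measured by 10 spots on each array. On 11 of the 12 arrays no spot was well above background, with raw processed signals of at most 19.8. On CS+LPS replicate 1 a single spot, marked as an outlier by the scanner software, read 410, and the highest of the others there read 11.4. The log2 signals, 2.08 to 3.30, lay near the lowest signals called well above background on these arrays (2.25 to 3.87), so that no level and no fold change is given for Il6 in any group.

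Between the exposed groups, 0 of the 8 genes were called and 0 passed the adjusted threshold of limma, for NaHS against CS+LPS (1.94% of all probes called and 0.739% past the adjusted threshold), for PPG against CS+LPS (2.14% and 0.589%) and for NaHS against PPG (0.499% and 0%). With slide as a block, which rests on Control replicate 3, NaHS against CS+LPS had 1 gene past the adjusted threshold (Il33, -0.92, limma adjusted p = 0.0249), and PPG against CS+LPS had 3 called (Il1a, Il1r2 and Il33, all lower) and 1 past it (Il33, -1.01, limma adjusted p = 0.0179). At an unadjusted p under 0.05 there were 0, 2 (Il1a and Il1rl1, both lower with PPG) and 0 genes, against 10.1%, 10.8% and 8.88% of all probes. NaHS and PPG lungs, which were on the same slide, differed by 0.74 for Il1a (95% interval -0.02 to 1.49) and by -0.43 for Tnf (-0.99 to 0.13), NaHS minus PPG. Il1b differed by -0.42 between NaHS and CS+LPS (-1.03 to 0.19), and this interval holds both no difference and a 2-fold lower level.

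Other genes of the same pathways were looked at from 5 lists with 55 genes, of which 42 had a probe and 35 were tested. With CS+LPS 2 of 35 were called, both higher, with CS+LPS+NaHS 1 and with CS+LPS+PPG 6, all higher, and the median log2 fold changes were 0.13, 0.09 and 0.07. Of all probes 4.6%, 2.58% and 4.3% were called in either direction. The counts with CS+LPS and CS+LPS+NaHS lie near these shares, which also hold probes called lower. Upward calls alone were 1.53% of probes with CS+LPS and 2.39% with CS+LPS+PPG. At an adjusted p under 0.05 the counts were 0, 0 and 4, 3 of them higher and 1 lower, against 2.1%, 0.122% and 5.24% of all probes. In the inflammasome and processing list, all 5 genes with a probe were tested. Casp1, the protease that matures IL-1 beta and IL-18, rose by 1.09 with CS+LPS+PPG (limma adjusted p = 0.0477). Casp1 stood at 0.79 with CS+LPS and 0.72 with CS+LPS+NaHS (limma adjusted p = 0.124 and 0.234). Pycard, the adaptor that recruits it, was called in all 3 exposed groups, at 1.14, 1.05 and 1.32, with limma adjusted p values of 0.119, 0.222 and 0.0651, and it was low in Control replicate 3 (10.19, against 11.59 and 12.07). Casp4, the caspase that senses intracellular LPS, rose by 0.68 with CS+LPS+PPG (limma adjusted p = 0.0247), less than the fold rule asks. Casp4 stood at 0.49 with CS+LPS and 0.23 with CS+LPS+NaHS (limma adjusted p = 0.0686 and 0.361).

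Of the receptors and binding proteins, 8 of 13 were tested and 1 was called. Il18bp, a secreted protein that neutralizes IL-18, rose by 1.06 with CS+LPS+PPG, from 8.46 ± 0.27 (SD, n = 3) to 9.53 ± 0.06 (limma adjusted p = 0.0208). Its target Il18 rose by 1.07 in the same comparison. Il18bp stood at 0.78 with CS+LPS and 0.50 with CS+LPS+NaHS (limma adjusted p = 0.0551 and 0.22). Among the other IL-1 family and alarmin ligands, 5 of 10 were tested. S100a8 and S100a9, the subunits of calprotectin that neutrophils release, were 1.32 and 1.33 above Control with CS+LPS+PPG (limma adjusted p = 0.0981 and 0.0683), and both are also among the neutrophil markers. With CS+LPS they stood at 0.80 and 0.82 and with CS+LPS+NaHS at 0.96 and 0.80, and were not called. Il36b, an epithelial agonist of the IL-36 receptor, was 1.51 above Control with CS+LPS and 1.69 with CS+LPS+PPG (limma adjusted p = 0.125 and 0.0753), with Control lungs spread over 5.96 to 8.68. P2rx7, the ATP-gated channel that triggers the inflammasome, was called in 1 comparison, with a mean of 5.64 ± 0.26 with NaHS and 4.4 ± 0.80 with CS+LPS alone (limma adjusted p = 0.395). In that comparison 1.94% of probes were called, and the NaHS and CS+LPS arrays were on different slides. The P2rx7 signal was dim, and a probe could be tested when well above background in 1 group alone. Of the adaptors and kinases 9 were tested, and Irak2, a kinase below the IL-1 receptor, fell by 0.48 with CS+LPS+PPG (limma adjusted p = 0.0492). Irak2 stood at -0.48 with CS+LPS and -0.41 with CS+LPS+NaHS (limma adjusted p = 0.0665 and 0.17). Between PPG and CS+LPS, 0 of the 35 tested pathway genes were called and 0 passed the adjusted threshold (2.14% and 0.589% of probes). None of the 8 tested NF-kB units and brakes was called or passed the adjusted threshold of limma in a comparison with Control.

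The genes whose signal ran most like each member over the 12 arrays were listed as a description, since all arrays share the 4 groups and 2 slides and a common group difference raises every correlation. Il1rn ran most like Card9 (Pearson r = 0.975), the adaptor of fungal receptors in myeloid cells, and Cfp (0.969), the complement protein properdin of neutrophils and monocytes. Il18 ran most like Prdx2 (0.971), a peroxidase, Gpr34 (0.961), a receptor of macrophages, and Tnfsf13 (0.948), the myeloid cytokine APRIL. Tnf ran most like Rpl28 (0.938) and Spp1 (0.912), the latter osteopontin, which lung macrophages secrete. Il33 ran most like Atp1b3 (0.985), a subunit of the sodium pump, and Il1a most like Dusp1 (0.917), an early-response phosphatase. For Il1rl1 the 3 closest genes were Mcpt8l2 (0.898), Tph1 (0.892), which makes serotonin in mast cells, and Mcpt8 (0.876), with Mcpt8l2 and Mcpt8 members of the mast cell protease family. Il1b ran most like Dnase2 (0.9) and Il1r2 most like Cox19 (0.905), out of 10235 genes compared. Among the members themselves, Il1rn and Il18 ran together (r = 0.84) and Il1a ran opposite to Tnf (r = -0.66).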

How the data were processed

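The authors deposited a scanner output file for each of 12 arrays, made with Agilent Feature Extraction 10.7 per the labels, in which every spot has a background-corrected, dye-normalized processed intensity on a linear scale and flags for signals well above background, saturation and outliers. Signals of 3 arrays had been rounded. The lists of changed genes hold the authors' own comparisons and were not used. Here, outlier spots were left out, log2 intensity was scaled to each array's 75th percentile, and spots of a probe were averaged. Genes were named from RefSeq accessions (17514 probes, GRCr8). Probes well above background in at least 0.5 of their spots on all 3 arrays of a group were tested (21239 of 30367) with limma 3.58.1 in R 4.3.3, two-sided, on all 12 arrays. The fold and p threshold follows the study; Benjamini-Hochberg adjustment was added, as was NaHS against PPG. The script was tested on simulated data. A gene is given by its brightest probe. Pathway genes are named where called in a comparison, and the 3 most correlated genes are drawn on for each member; Casp4 and Irak2 were named after their values were seen. The members and lists were chosen with earlier results of these data known. Alternatives were other normalizations, background correction (normexp on median signals, offset 50), filters, slide, replicate number, the methods' t-test and leaving out arrays. The number of arrays limits the precision. The limma p-values set each difference against the spread between rats, estimated over all 4 groups with information shared across probes.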

Additional observations from a re-analysis of the deposited data

How the results depend on the processing

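Over the alternatives tried, 36 values changed sign. In 34 of them the value passed no threshold before or after, and its size was at most 0.47 (with slide as a block, for example, Il1a went from -0.24 to 0.18 with CS+LPS against Control). The other 2 were the Il33 differences of NaHS and PPG from CS+LPS, which turned to -0.92 and -1.01 with slide as a block. Counts by fold and p, of 8 genes, changed as follows. With slide as a block they were 4 (CS+LPS against Control), 1 (PPG against Control) and 3 (PPG against CS+LPS), with slide 1 only 1 (PPG against Control), and with slide 2 only 4 (CS+LPS against Control). Counts at an adjusted p under 0.05, which were 2 for CS+LPS and 3 for PPG against Control, became 4 and 1 with slide as a block, which also gave 1 each for NaHS and PPG against CS+LPS. For CS+LPS they became 1 with quantile normalization and 0 with probes above background on at least 1 array. For both comparisons they became 0 with no filter on dim probes, with only the groups compared in the fit and with the methods' t-test after Benjamini-Hochberg adjustment. Replicate numbers do not mark shared animals or batches, and arrays of the same number deviated together no more than others (r from -0.309 to 0.139, median -0.104, against 0.057 for different numbers); with the replicate block both adjusted counts became 0. Leaving out each array in turn, calls ranged from 0 to 2 for CS+LPS, 0 to 2 for NaHS and 1 to 4 for PPG against Control, from 0 to 1 for PPG against CS+LPS and from 0 to 1 for NaHS against PPG, and adjusted counts from 0 to 2 for CS+LPS and from 0 to 2 for PPG against Control. For CS+LPS the adjusted count was 0 without Control replicate 3, CS+LPS replicate 2 or 3 or any single NaHS or PPG array, and calls were 0 without Control replicate 3 or CS+LPS replicate 2. For PPG, 1 call was left without Control replicate 3 or CS+LPS+PPG replicate 3 and 2 without CS+LPS+PPG replicate 1, and the adjusted count was 0 without CS+LPS+PPG replicate 1 or 3, 1 without Control replicate 1 or 3 or CS+LPS+PPG replicate 2, and 2 otherwise. Normexp moved the median of all probes with CS+LPS from -0.06 to -0.16. In all, 249 recomputed counts stayed within 1.5 times the reported one, 34 were lower and 13 higher. The cause of these changes was not tested. Il6 and the second Il1rl1 probe are limited by signal near background.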
